A study of Mus musculus with 12 samples.

Results

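The 35 genes described here code for the enzymes of glycolysis in their tissue isoforms, the enzymes that set its pace, the first enzymes of the pentose phosphate pathway, glycogen synthase and phosphorylase, and the transporters of glucose and lactate. They were picked by gene symbol from the 17471 genes listed for mouse left ventricle. The rule names no measured value, but the list was drawn up with earlier results of these data known. All 35 had enough reads to be tested among 13678 genes. Each of the 4 groups held 3 libraries of whole left ventricle, taken 4 days after surgery from mice aged 6 to 10 weeks. Cre-positive MI hearts came from mice with floxed Yap alleles and a copy of MerCreMer, a recombinase switched on by tamoxifen, inserted at the endogenous Postn locus, in which the left anterior descending coronary artery was tied off for good to cause a myocardial infarction (MI). Cre-negative MI hearts came from siblings with floxed Yap alleles and wildtype Postn that had the same ligation. Cre-positive sham and Cre-negative sham hearts came from the same 2 genotypes after a sham operation. All animals, the Cre-negative ones included, carried floxed Yap and ate tamoxifen citrate diet from the time of surgery. The recombinase is driven from the locus of periostin, a matrix protein gene of activated fibroblasts, so that deletion of Yap is directed to cells that express Postn. The labels number the replicates and say no more about them, so p-values measure the spread between these samples, which may be technical.

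Glycolysis breaks glucose down to pyruvate in the cytosol, and most of its steps can be run by several isoforms that separate genes encode. Cardiac and skeletal muscle rely on muscle-type forms, such as phosphofructokinase M, muscle phosphoglycerate mutase, beta-enolase and the insulin-responsive glucose transporter GLUT4. Leukocytes, fibroblasts and many other cells use widely expressed forms, and lactate crosses membranes through monocarboxylate transporters, of which MCT1 is common in oxidative muscle and MCT4 in cells with high glycolytic flux. The healthy adult heart burns mostly fatty acids and takes up lactate as fuel.

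Library totals lay between 10257675 and 15176286 expected counts. Cardiomyocyte markers summed to at least 49251 CPM (counts scaled for depth, here with TMM factors) in every library. Of 9 skeletal muscle markers 5 (Myh1, Myh2, Myh4, Mylpf and Actn3) had too few reads to be tested, and of the 4 tested 2 rose after MI in both genotypes. Tnnt3, the fast skeletal troponin T gene, averaged 14.9 ± 4.1 CPM in Cre-positive and 16.97 ± 6.43 in Cre-negative hearts after MI, and 0.29 ± 0.28 in Cre-positive and 0.65 ± 0.15 in Cre-negative hearts after sham. Tnni2, fast troponin I, averaged 2.50 ± 1.04 CPM in Cre-positive and 2.22 ± 0.86 in Cre-negative hearts after MI, and 0.87 ± 0.13 in Cre-positive and 1.04 ± 0.30 in Cre-negative hearts after sham. Atp2a1 averaged 0.91 ± 0.42 CPM in Cre-positive and 0.56 ± 0.33 in Cre-negative hearts after MI. After sham it averaged 1.05 ± 0.46 in Cre-positive and 0.88 ± 0.19 in Cre-negative hearts. Casq1 averaged 13.5 ± 3.5 CPM in Cre-positive and 17.9 ± 7.3 in Cre-negative hearts after MI. After sham Casq1 averaged 7.7 ± 3.2 in Cre-positive and 12.9 ± 3.6 in Cre-negative hearts. Yap1 averaged 92.6 ± 1.4 CPM in Cre-positive and 91.7 ± 6.2 in Cre-negative hearts after MI, and 109.9 ± 10.2 in Cre-positive and 115 ± 1.1 in Cre-negative hearts after sham (SD, n = 3 each). The log2 difference of Cre-positive from Cre-negative hearts was 0.01 ± 0.09 after MI (adjusted p = 0.971) and -0.06 ± 0.09 after sham (adjusted p = 0.843), and gene counts do not resolve the floxed part. Postn averaged 635 ± 36 CPM in Cre-positive MI against 1616 ± 103 CPM in Cre-negative MI hearts, and 8.47 ± 4.13 CPM in Cre-positive sham against 86.8 ± 24.2 CPM in Cre-negative sham hearts. Cre-positive sham replicate 2 stood apart, with 34063 CPM of the slow myosin gene Myh7, where the remaining 5 sham libraries held 377 to 2938 CPM. Reads of 4 Y-linked genes were present in 1 of 3 Cre-positive MI, 3 of 3 Cre-negative MI, 0 of 3 Cre-positive sham and 2 of 3 Cre-negative sham libraries, so sex is spread unevenly over the groups.

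After infarction some of the glycolytic genes rose and others fell, often within 1 family of isoforms. Summed over isoforms in TMM-scaled CPM per kilobase, each isoform family had a lower mean after MI. The log2 ratios of these means ran from -0.28 to -0.73 in Cre-positive hearts. In Cre-negative hearts they ran from -0.34 to -1.14, and no test was made of these sums. In Cre-positive hearts the sums of MI and sham libraries overlapped for hexokinase, the bifunctional PFKFB enzymes, enolase and the glucose transporters. In Cre-negative hearts they overlapped for the lactate transporters (67.4 in MI replicate 3, 63.4 in sham replicate 2). The sums carry the TMM factors, of 1.04 to 1.14 in MI and 0.89 to 0.98 in sham libraries, and were not made with library totals. In Cre-positive hearts 22 of the 35 genes passed the edgeR quasi-likelihood test at an adjusted p under 0.05 for MI against sham. Of these, 11 rose and 11 fell. The share called was 45.2% over all genes tested, with 25.7% higher and 19.5% lower. In Cre-negative hearts 27 of the 35 were called, 12 higher and 15 lower, against 54.3% of all genes, with 29.9% higher and 24.4% lower. The 2 comparisons share no library, but all 12 libraries were fitted together, so they are not fully independent. In both, 21 genes were called, each in the same direction. No share of genes called in both was computed over all genes, so the 21 are not shown to be particular to this list. The median log2 fold change of the 35 genes was -0.04 in Cre-positive hearts against 0.015 over all genes, and -0.12 in Cre-negative hearts against 0.02 over all genes. With library totals in place of TMM, the median of all genes moved to 0.24 in Cre-positive and 0.27 in Cre-negative hearts, and that of the 35 genes turned positive, at 0.19 in Cre-positive and 0.12 in Cre-negative hearts. The split of all genes called then became 4978 higher and 1147 lower in Cre-positive hearts, against 3514 and 2665 with TMM, and 5634 higher and 1837 lower in Cre-negative hearts, against 4090 and 3334 with TMM. In CPM, MI and sham libraries did not overlap for 23 of the 35 genes in Cre-positive hearts, 12 higher and 11 lower after MI, against 51.1% of all genes (29.3% higher and 21.9% lower). In Cre-negative hearts they did not overlap for 29, 12 higher and 17 lower, against 67.8% (36.1% higher and 31.7% lower). Over both genotypes together 20 genes separated the 6 MI from the 6 sham libraries, 10 higher and 10 lower, against 40.5% (24% higher and 16.5% lower). These overlaps are those of TMM-scaled CPM. In FPKM (fragments per kilobase, scaled for depth without TMM), Gpi1, Tpi1, Slc2a4 and Gys1 did not separate the MI from the sham libraries. With library totals, edgeR called among the 35 genes 13 higher and 6 lower in Cre-positive hearts, and 12 higher and 10 lower in Cre-negative hearts. That scaling ended the calls of Gpi1, Tpi1, Pgam2, Slc16a1 and Gys1 in Cre-positive hearts, and of Hk2, Gpi1, Tpi1, Gapdh and Gys1 in Cre-negative hearts. In whole tissue, fewer cells of a type and less RNA of a gene per cell cannot be told apart. Beside these values, markers of cardiomyocytes fell, with 6 of 9 lower in Cre-positive hearts and 8 of 9 in Cre-negative hearts, and all 9 macrophage and monocyte markers rose in both genotypes. Of 8 fibroblast markers 7 rose in each genotype (median log2 fold change 3.05 in Cre-positive and 2.25 in Cre-negative hearts), and of 5 adipocyte markers 4 rose in each (median 4.78 in Cre-positive and 4.49 in Cre-negative hearts). Of 7 neutrophil markers 3 rose in Cre-positive and 6 in Cre-negative hearts. Of 8 endothelial markers 0 rose and 2 fell in Cre-positive hearts, and 1 rose and 2 fell in Cre-negative hearts, and of 7 erythrocyte markers 0 were called in either genotype. Summed cardiomyocyte markers ranged from 71616 to 86453 CPM in Cre-positive and 49251 to 68405 in Cre-negative hearts after MI, and 78406 to 149220 in Cre-positive and 122770 to 137110 in Cre-negative hearts after sham. Summed macrophage markers ranged from 1301 to 1458 CPM in Cre-positive and 1753 to 1940.4 in Cre-negative hearts after MI, and 89.7 to 301 in Cre-positive and 279 to 314 in Cre-negative hearts after sham. Summed fibroblast markers ranged from 11859 to 13134 CPM in Cre-positive and 15973 to 17735 in Cre-negative hearts after MI, and 904 to 1282 in Cre-positive and 1740.3 to 2224 in Cre-negative hearts after sham. Summed adipocyte markers ranged from 384 to 1141 CPM in Cre-positive and 395 to 599 in Cre-negative hearts after MI, and 255 to 494 in Cre-positive and 329.97 to 467 in Cre-negative hearts after sham. No marker of these lists was at 0 in all libraries, and the part of these shifts in the results below was not tested.

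**Figure D1:**
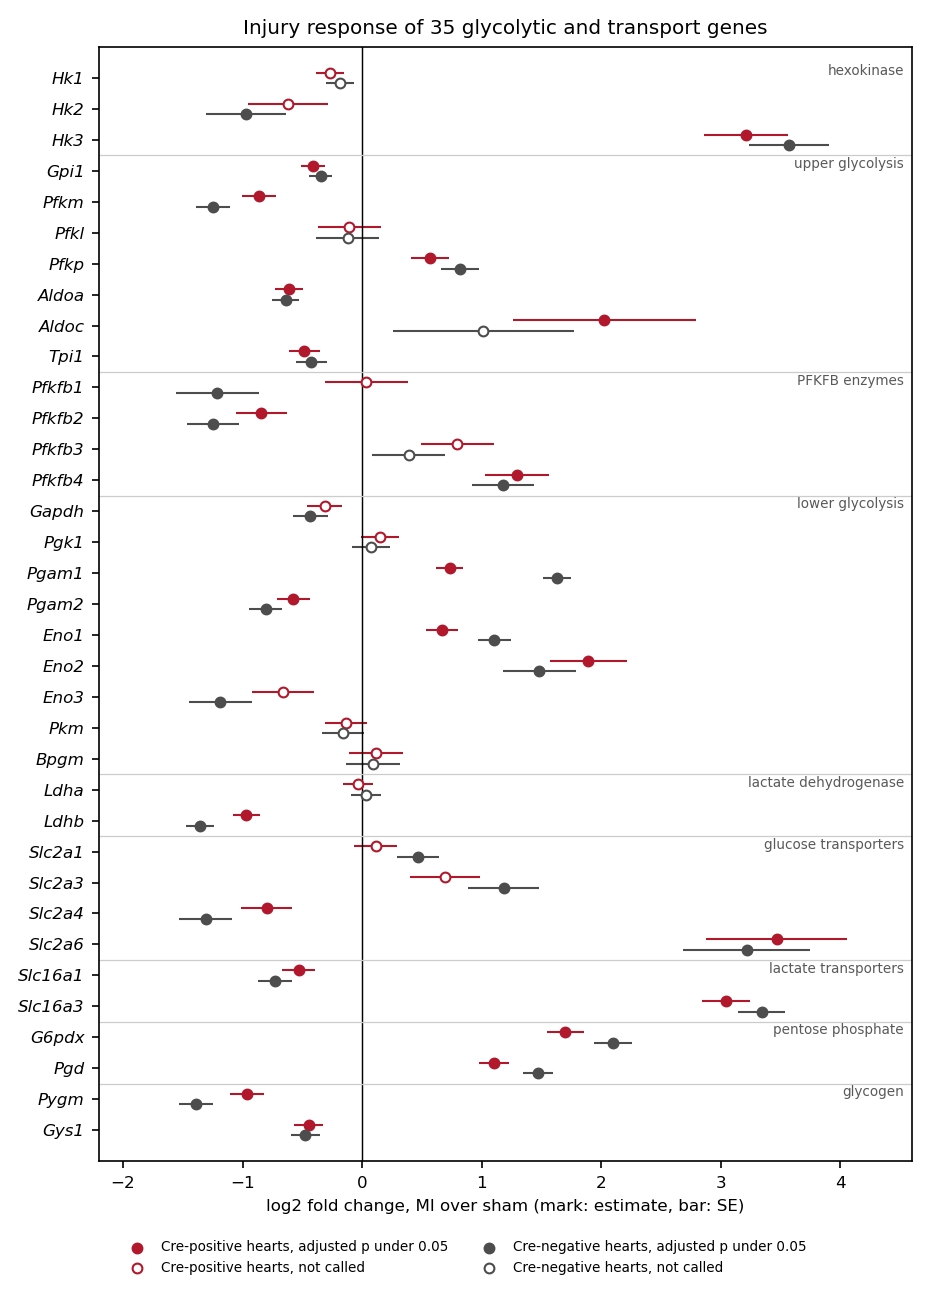
Log2 fold change of MI over sham for each of the 35 genes on the horizontal axis, in Cre-positive hearts (red) above Cre-negative hearts (grey), with bars of 1 standard error. Filled marks passed an adjusted p under 0.05, and Hk3, Slc2a6 and Slc16a3 lie farthest to the right in both genotypes while Ldhb and Pygm lie farthest to the left among the called marks.

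Glucose enters glycolysis when hexokinase phosphorylates it. Hk3, the hexokinase of myeloid cells, had 11.2, 10.3 and 13.9 CPM in Cre-positive and 23.9, 20.8 and 18.1 in Cre-negative hearts after MI, and 1.69, 0.275 and 1.86 in Cre-positive and 1.69, 1.90 and 1.68 in Cre-negative hearts after sham. Every MI library lay above every sham library. Its log2 fold change with infarction was 3.21 ± 0.35 in Cre-positive hearts (SE, n = 3 a group, adjusted p = 1.755e-05) and 3.57 ± 0.33 in Cre-negative hearts (adjusted p = 3.392e-06). Hk2, the insulin-responsive hexokinase of muscle, had 181.5, 258 and 271 CPM in Cre-positive and 136, 242 and 228 in Cre-negative hearts after MI, and 477, 177 and 437 in Cre-positive and 375, 314 and 502 in Cre-negative hearts after sham. The groups did not overlap in Cre-negative hearts, whereas in Cre-positive hearts sham replicate 2 lay below every MI library. Hk2 fell in Cre-negative hearts, by 0.98 ± 0.34 on the log2 scale (adjusted p = 0.027). Leaving out Cre-negative MI replicate 1 gave an adjusted p of 0.106 and leaving out Cre-negative sham replicate 3 one of 0.102, which ended the call, and over all alternatives the adjusted p ran from 0.00183 to 0.106. In Cre-positive hearts the log2 fold change of Hk2 was -0.62 ± 0.33 (adjusted p = 0.15), and without sham replicate 2 it was -0.99 ± 0.24 (adjusted p = 0.00501). Hk1, the widely expressed hexokinase, had 327, 359 and 314 CPM in Cre-positive and 298, 320.4 and 306 in Cre-negative hearts after MI, and 473, 336 and 394 in Cre-positive and 375, 329 and 348 in Cre-negative hearts after sham. Hk1 was called in neither genotype, with log2 fold changes of -0.27 ± 0.12 in Cre-positive hearts (adjusted p = 0.0883) and -0.19 ± 0.12 in Cre-negative hearts (adjusted p = 0.21). In Cre-negative hearts every MI library lay below every sham library. In Cre-positive hearts Hk1 was called lower without sham replicate 2 (-0.42 ± 0.11, adjusted p = 0.00755) and by DESeq2 (-0.30 ± 0.13, adjusted p = 0.0475). As a share of hexokinase FPKM (fragments per kilobase, scaled for depth), Hk3 averaged 3.06 ± 0.54% in Cre-positive MI against 0.23 ± 0.13% in Cre-positive sham hearts, and 5.92 ± 1.5% in Cre-negative MI against 0.37 ± 0.07% in Cre-negative sham hearts (SD, n = 3 each). Hk3 thus remained the least abundant of the 3 hexokinases in every group.

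Phosphofructokinase commits sugar to glycolysis. Pfkm, the muscle-type subunit, had 719.6, 828 and 727 CPM in Cre-positive and 494, 609 and 615 in Cre-negative hearts after MI, and 1568, 1138 and 1423 in Cre-positive and 1463, 1199.5 and 1421 in Cre-negative hearts after sham. Every MI library was below every sham library, and among the MI libraries the Cre-negative ones were lowest. Pfkm fell by 0.86 ± 0.14 on the log2 scale in Cre-positive hearts (adjusted p = 0.000417) and by 1.25 ± 0.14 in Cre-negative hearts (adjusted p = 1.68e-05). Pfkp, the platelet-type subunit found in many tissues, had 115, 129.7 and 121 CPM in Cre-positive and 130.2, 166 and 140.3 in Cre-negative hearts after MI, and 90.7, 68.5 and 88.3 in Cre-positive and 104, 71.1 and 72.0 in Cre-negative hearts after sham. The MI libraries all lay above the sham libraries. Pfkp rose by 0.57 ± 0.16 in Cre-positive hearts (adjusted p = 0.0125) and by 0.82 ± 0.16 in Cre-negative hearts (adjusted p = 0.000988). Pfkl, the liver-type subunit, had 135, 149 and 173 CPM in Cre-positive and 105, 196 and 159 in Cre-negative hearts after MI, and 209, 94.5 and 189 in Cre-positive and 159.75, 172 and 169 in Cre-negative hearts after sham. MI and sham libraries overlapped for Pfkl, which was not called. Pfkm held 78.9 ± 1.7% of phosphofructokinase FPKM in Cre-positive MI against 88.4 ± 1.8% in Cre-positive sham hearts, and 72.4 ± 2.6% in Cre-negative MI against 88.0 ± 1.0% in Cre-negative sham hearts.

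The bifunctional PFKFB enzymes make and remove fructose 2,6-bisphosphate, the activator of phosphofructokinase. Pfkfb2, the heart isoform, had 56.0, 80.6 and 84.4 CPM in Cre-positive and 48.5, 64.9 and 53.0 in Cre-negative hearts after MI, and 133, 109 and 155 in Cre-positive and 124, 99.1 and 172 in Cre-negative hearts after sham. No MI library reached any sham library. Pfkfb2 fell by 0.84 ± 0.21 in Cre-positive hearts (adjusted p = 0.00678) and by 1.25 ± 0.22 in Cre-negative hearts (adjusted p = 0.000401) on the log2 scale. Pfkfb3, the inducible isoform with high kinase activity, had 52.2, 24.7 and 23.7 CPM in Cre-positive and 44.8, 28.2 and 24.6 in Cre-negative hearts after MI, and 19.6, 19.98 and 18.4 in Cre-positive and 22.2, 31.6 and 21.0 in Cre-negative hearts after sham. Replicate 1 was highest in both MI groups, and MI and sham overlapped in Cre-negative hearts alone. Pfkfb3 was called in neither genotype, with log2 fold changes of 0.80 ± 0.31 in Cre-positive hearts (adjusted p = 0.051, from 0.0211 to 0.318 over the alternatives) and 0.39 ± 0.30 in Cre-negative hearts. Pfkfb4 rose in both genotypes, by 1.29 ± 0.27 in Cre-positive hearts (adjusted p = 0.00198) and 1.18 ± 0.26 in Cre-negative hearts (adjusted p = 0.00227). Pfkfb1, known as the isoform of liver and skeletal muscle, had 8.33, 7.99 and 4.51 CPM in Cre-positive and 4.70, 3.56 and 5.14 in Cre-negative hearts after MI, and 6.19, 6.41 and 7.74 in Cre-positive and 15.99, 9.78 and 5.22 in Cre-negative hearts after sham. It fell in Cre-negative hearts by 1.21 ± 0.35 (adjusted p = 0.0109), which without Cre-negative sham replicate 1 became 0.77 (log2 fold change -0.77 ± 0.31, adjusted p = 0.0654), and it was not called in Cre-positive hearts (0.04 ± 0.35).

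Of the enzymes that follow, glucose phosphate isomerase (Gpi1), aldolase A (Aldoa) and triosephosphate isomerase (Tpi1) fell in both genotypes. Their log2 fold changes were -0.41 ± 0.10, -0.61 ± 0.12 and -0.48 ± 0.13 in Cre-positive hearts, and -0.35 ± 0.10, -0.64 ± 0.12 and -0.42 ± 0.13 in Cre-negative hearts. Tpi1 was not called in Cre-negative hearts without Cre-negative MI replicate 1 (adjusted p = 0.0614, against 0.0142 with it). The brain-type aldolase C (Aldoc) had expected counts of 17, 8 and 14 in Cre-positive and 11, 13 and 5 in Cre-negative hearts after MI, and 4, 3 and 0 in Cre-positive and 6, 0 and 3 in Cre-negative hearts after sham. At that depth it was called in Cre-positive hearts alone, with a log2 fold change of 2.03 ± 0.76 (adjusted p = 0.0463). The call was lost without any 1 of 9 libraries, and over the alternatives the adjusted p ran from 0.0286 to 0.129. Aldoa made up at least 99.98% of aldolase FPKM in the mean of every group. Glyceraldehyde 3-phosphate dehydrogenase (Gapdh), the most abundant of the 35 transcripts by FPKM in every group, fell by 0.43 ± 0.14 in Cre-negative hearts (adjusted p = 0.0237), a call that was lost without Cre-negative MI replicate 1, Cre-negative sham replicate 1 or Cre-negative sham replicate 3 (adjusted p = 0.0887, 0.0637 and 0.0562). In Cre-positive hearts the log2 fold change of Gapdh was -0.31 ± 0.14 (adjusted p = 0.096), and -0.48 ± 0.12 without Cre-positive sham replicate 2 (adjusted p = 0.00529). Phosphoglycerate kinase (Pgk1) and bisphosphoglycerate mutase (Bpgm), which makes the allosteric ligand of hemoglobin in red cells, were not called in either genotype. Gapdh, Pgk1, Ldha, Pgam1 and Aldoa have 2 or 3 pseudogenes named after them in the annotation and Ldhb has 1, and reads shared with such copies could not be separated here.

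The isoforms of phosphoglycerate mutase moved in opposite directions. Pgam1, the widely expressed form, had 166, 143 and 172 CPM in Cre-positive and 209, 235 and 196 in Cre-negative hearts after MI, and 102, 103 and 84.4 in Cre-positive and 62.5, 72.4 and 72.2 in Cre-negative hearts after sham. All 4 groups were separate, in the order Cre-negative MI, Cre-positive MI, Cre-positive sham and Cre-negative sham. Pgam1 rose by 0.73 ± 0.12 on the log2 scale in Cre-positive hearts (adjusted p = 0.0002897) and by 1.63 ± 0.12 in Cre-negative hearts (adjusted p = 5.458e-07). Pgam2, the form of cardiac and skeletal muscle, had 449, 415 and 426 CPM in Cre-positive and 288, 423 and 404 in Cre-negative hearts after MI, and 701, 563 and 659.5 in Cre-positive and 651.5, 634 and 667 in Cre-negative hearts after sham. It lay lower in every MI library than in any sham library, and fell by 0.58 ± 0.14 in Cre-positive hearts (adjusted p = 0.00471) and by 0.81 ± 0.14 in Cre-negative hearts (adjusted p = 0.000368). Pgam1 held 15.1 ± 1.0% of phosphoglycerate mutase FPKM in Cre-positive MI against 6.77 ± 1.16% in Cre-positive sham hearts, and 21.8 ± 3.6% in Cre-negative MI against 4.83 ± 0.4% in Cre-negative sham hearts.

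The stretches of 250 bases ahead of the transcription start are shown for this pair, whose isoforms moved in opposite directions, for Slc16a3, which had the smallest adjusted p of the genes that rose in Cre-negative hearts, and for Pygm, which fell most there. Sequences are from RefSeq in build GRCm38.p6, given on the strand of the gene, 5′ to 3′, and end 1 base before the start. Capitals mark ACGTG, a form of the core of the hypoxia response element (CACGT where it lies on the other strand). Other forms of that core were not searched for and are not marked. In Pgam2, capitals mark a match to the MEF2 motif, named for the myocyte enhancer factors. The Pgam1 window lies at chr19:41911621-41911870 on the plus strand, the Pgam2 window at chr11:5803797-5804046 on the minus strand, the Slc16a3 window at chr11:120948817-120949066 on the plus strand and the Pygm window at chr19:6384158-6384407 on the plus strand.
Pgam1: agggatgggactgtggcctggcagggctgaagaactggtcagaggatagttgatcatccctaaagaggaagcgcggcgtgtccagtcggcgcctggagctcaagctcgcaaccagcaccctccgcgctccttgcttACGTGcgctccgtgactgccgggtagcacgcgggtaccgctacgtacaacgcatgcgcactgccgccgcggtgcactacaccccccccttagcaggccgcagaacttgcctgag
Pgam2: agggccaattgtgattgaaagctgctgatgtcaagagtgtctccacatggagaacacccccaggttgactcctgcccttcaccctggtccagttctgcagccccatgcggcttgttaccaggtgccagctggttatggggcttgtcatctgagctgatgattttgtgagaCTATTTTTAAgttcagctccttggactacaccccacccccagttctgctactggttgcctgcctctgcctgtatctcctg
Slc16a3: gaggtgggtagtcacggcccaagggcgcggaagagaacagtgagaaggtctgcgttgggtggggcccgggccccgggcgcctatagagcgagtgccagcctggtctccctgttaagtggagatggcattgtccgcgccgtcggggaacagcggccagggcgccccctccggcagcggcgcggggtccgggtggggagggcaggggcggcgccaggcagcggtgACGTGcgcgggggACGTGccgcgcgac
Pygm: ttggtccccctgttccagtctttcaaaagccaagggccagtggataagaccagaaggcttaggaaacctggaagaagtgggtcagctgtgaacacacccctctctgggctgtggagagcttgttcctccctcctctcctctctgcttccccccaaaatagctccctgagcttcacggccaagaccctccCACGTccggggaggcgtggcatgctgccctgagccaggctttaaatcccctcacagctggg
ACGTG was searched for on both strands, as were CACGTG, which contains it, and the MEF2 motif. Of the 33 genes with a window in the table, 14 held ACGTG in at least 1 of their windows, among them 4 of 11 that rose and 6 of 14 that fell in Cre-negative hearts. ACGTG was held by 18.5% of all genes with a window and by 16.6% of all windows. The 33 genes have 51 windows and all 27025 genes have 32851, so the 33 had more windows each in which to hold a match. Counted from the start to the first base of the match, Pgam1 has 1 copy at -114, Pygm 1 at -61, and Slc16a3 holds 2. CACGTG was found for 5 of the 33 genes (Pfkm, Pfkfb2, Pfkfb3, Ldha and Slc16a1), against 6.9% of all genes. The MEF2 motif was found for Pgam2 and Pfkfb1, 2 of the 33, against 3.4% of all genes. A match in these windows describes the letters and is not a measured binding site.

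Enolase isoforms also diverged. Eno1, alpha-enolase, had 383, 338 and 416 CPM in Cre-positive and 477, 475 and 459.8 in Cre-negative hearts after MI, and 284, 199 and 233 in Cre-positive and 193, 218 and 245 in Cre-negative hearts after sham. Every MI library was above every sham library, and the Cre-negative MI libraries were highest. Eno1 rose by 0.67 ± 0.14 in Cre-positive hearts (adjusted p = 0.00173) and by 1.11 ± 0.14 in Cre-negative hearts (adjusted p = 3.059e-05). Eno3, beta-enolase of muscle, had 863, 873 and 939 CPM in Cre-positive and 540.2, 714 and 791 in Cre-negative hearts after MI, and 1928, 749 and 1554 in Cre-positive and 1556, 1492 and 1611 in Cre-negative hearts after sham. In Cre-positive hearts sham replicate 2 lay below all 3 MI libraries, and in Cre-negative hearts the groups were apart. Eno3 fell by 1.19 ± 0.26 in Cre-negative hearts (adjusted p = 0.00228). In Cre-positive hearts its log2 fold change was -0.66 ± 0.26 (adjusted p = 0.0553), and -1.005 ± 0.148 without sham replicate 2 (adjusted p = 0.000143), with adjusted p from 0.000143 to 0.243 over the alternatives. Eno2, neuron-type enolase, had 5.01, 4.17 and 3.85 CPM in Cre-positive and 5.91, 4.31 and 5.07 in Cre-negative hearts after MI, and 1.53, 1.47 and 0.413 in Cre-positive and 1.79, 1.997 and 1.68 in Cre-negative hearts after sham. Its MI and sham libraries did not overlap, and it rose by 1.89 ± 0.32 in Cre-positive hearts (adjusted p = 0.000527) and 1.48 ± 0.30 in Cre-negative hearts (adjusted p = 0.00137). It made up at most 0.28% of enolase FPKM in the mean of any group. The share of Eno1 in enolase FPKM averaged 25.8 ± 1.5% in Cre-positive MI against 13.2 ± 4.1% in Cre-positive sham hearts, and 36.5 ± 5.0% in Cre-negative MI against 10.4 ± 1.0% in Cre-negative sham hearts.

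Pyruvate kinase of muscle (Pkm), which makes pyruvate, had log2 fold changes of -0.14 ± 0.17 in Cre-positive hearts and -0.16 ± 0.17 in Cre-negative hearts and was called in neither. Without Cre-positive sham replicate 2 its log2 fold change in Cre-positive hearts was -0.39 ± 0.10 (adjusted p = 0.00517). Its M1 and M2 splice forms have the same length in the files and were not resolved at gene level. Lactate dehydrogenase interconverts pyruvate and lactate. Ldhb, the heart-type subunit, had 1133, 1169 and 1062 CPM in Cre-positive and 814, 942 and 903 in Cre-negative hearts after MI, and 2418, 1931 and 2235 in Cre-positive and 2330.3, 2108 and 2368 in Cre-negative hearts after sham. MI and sham libraries were far apart, and among MI libraries every Cre-positive one was above every Cre-negative one. Ldhb fell by 0.97 ± 0.12 in Cre-positive hearts (adjusted p = 3.275e-05) and by 1.36 ± 0.12 in Cre-negative hearts (adjusted p = 1.79e-06). Ldha, the subunit of skeletal muscle that many other tissues also express, had 875, 864 and 902 CPM in Cre-positive and 791, 942 and 889 in Cre-negative hearts after MI, and 1055, 744 and 911 in Cre-positive and 864, 794 and 902 in Cre-negative hearts after sham. The groups overlapped, and the log2 fold change was -0.04 ± 0.13 in Cre-positive hearts (adjusted p = 0.833) and 0.03 ± 0.13 in Cre-negative hearts (adjusted p = 0.84). Ldha held 38.5 ± 1.7% of lactate dehydrogenase FPKM in Cre-positive MI against 24.7 ± 1.1% in Cre-positive sham hearts, and 44.0 ± 0.35% in Cre-negative MI against 23.1 ± 0.25% in Cre-negative sham hearts.

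**Figure D2:**
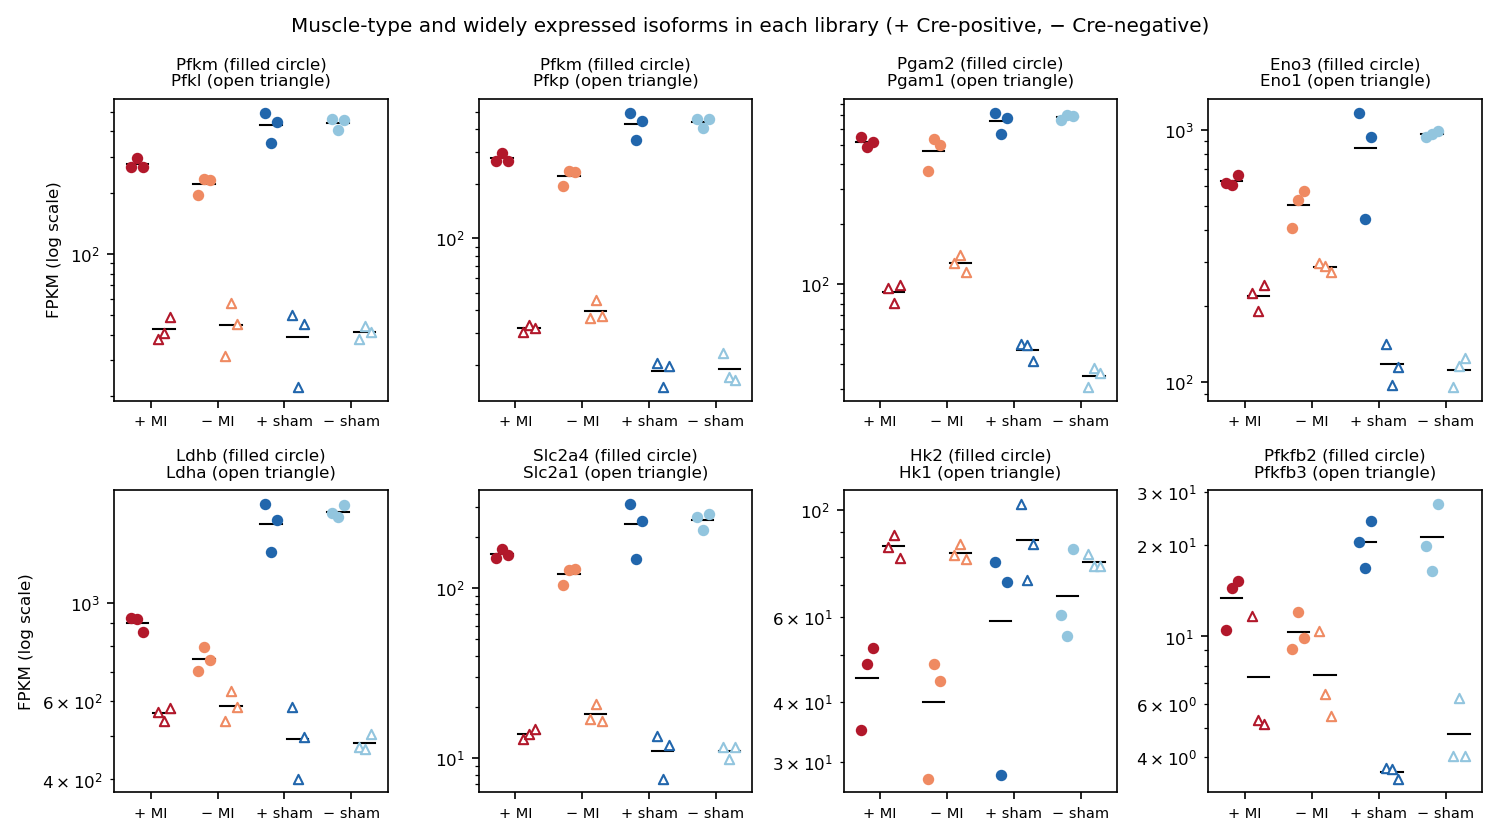
FPKM on a log axis in each of the 12 libraries for the muscle-type gene (filled circles; for lactate dehydrogenase the heart-type Ldhb) and the widely expressed gene (open triangles) of 8 pairs, with a bar at the mean of 3 libraries, from left to right Cre-positive MI, Cre-negative MI, Cre-positive sham and Cre-negative sham. Circles and triangles lie closer together after MI for Pgam2 and Pgam1 and for Eno3 and Eno1, and 1 Cre-positive sham library lies low for Hk2, Eno3 and Slc2a4.

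Among glucose transporters, Slc2a4, which codes for GLUT4, had 394, 464 and 414 CPM in Cre-positive and 260.2, 325 and 336 in Cre-negative hearts after MI, and 965, 472 and 778 in Cre-positive and 817, 634 and 833 in Cre-negative hearts after sham. In CPM each MI library was lower than each sham library. In FPKM, Cre-positive sham replicate 2 (148.58) lay below the Cre-positive MI libraries (149.34, 169.99 and 155.55). Slc2a4 fell by 0.80 ± 0.22 in Cre-positive hearts (adjusted p = 0.0096) and by 1.31 ± 0.22 in Cre-negative hearts (adjusted p = 0.0003002). Slc2a1, the widely expressed GLUT1, had 31.0, 34.6 and 35.8 CPM in Cre-positive and 38.6, 48.6 and 39.5 in Cre-negative hearts after MI, and 38.0, 21.9 and 33.9 in Cre-positive and 33.0, 26.2 and 32.3 in Cre-negative hearts after sham. In Cre-negative hearts the groups did not overlap, and in Cre-positive hearts they did. Slc2a1 was called in Cre-negative hearts (0.47 ± 0.18, adjusted p = 0.0426), but the call was lost without any 1 of 10 of the 12 libraries. The call was also lost with RLE size factors (adjusted p = 0.0542), a replicate block (adjusted p = 0.0509) and Y-linked reads as a covariate (adjusted p = 0.0773). The adjusted p of Slc2a1 ran from 0.00465 to 0.201 over the alternatives. In Cre-positive hearts its log2 fold change was 0.11 ± 0.18. Slc2a3, GLUT3 of neurons and leukocytes, rose by 1.18 ± 0.30 in Cre-negative hearts (adjusted p = 0.00498), and in Cre-positive hearts its log2 fold change was 0.69 ± 0.29 (adjusted p = 0.0715), or 1.06 ± 0.28 without sham replicate 2 (adjusted p = 0.00793). Slc2a6, a hexose transporter of lysosomes in macrophages, had expected counts of 31, 42 and 34 in Cre-positive and 76, 48 and 42 in Cre-negative hearts after MI, and 4, 0 and 3 in Cre-positive and 1, 3 and 7 in Cre-negative hearts after sham. The sham libraries were near the detection limit, since 3 counts correspond to 0.198 to 0.292 CPM. Slc2a6 rose in both genotypes, with log2 fold changes of 3.47 ± 0.59 in Cre-positive hearts (adjusted p = 0.000513) and 3.22 ± 0.53 in Cre-negative hearts (adjusted p = 0.000285). Slc2a4 still made up 90.8 ± 0.5% of the FPKM of these 4 transporters in Cre-positive MI against 95.2 ± 0.5% in Cre-positive sham hearts, and 84.9 ± 1.9% in Cre-negative MI against 95.5 ± 0.1% in Cre-negative sham hearts.

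The lactate transporters moved apart. Slc16a3, coding for MCT4, had 22.4, 21.6 and 33.1 CPM in Cre-positive and 33.6, 38.8 and 36.8 in Cre-negative hearts after MI, and 3.30, 3.39 and 2.58 in Cre-positive and 3.20, 3.195 and 4.34 in Cre-negative hearts after sham. The lowest MI library held more than any sham library, and every Cre-negative MI library lay above every Cre-positive one. Slc16a3 rose 8.27-fold in Cre-positive hearts (log2 3.05 ± 0.20, adjusted p = 5.134e-07) and 10.2-fold in Cre-negative hearts (log2 3.34 ± 0.20, adjusted p = 1.678e-07). Slc16a1, coding for MCT1, had 253, 276 and 275 CPM in Cre-positive and 166, 202 and 232 in Cre-negative hearts after MI, and 349, 414 and 399 in Cre-positive and 373, 275 and 346 in Cre-negative hearts after sham. Within each genotype every MI library was the lower, and Slc16a1 fell by 0.53 ± 0.14 in Cre-positive hearts (adjusted p = 0.00853) and by 0.73 ± 0.14 in Cre-negative hearts (adjusted p = 0.000913). Slc16a3 held 14.9 ± 2.9% of the FPKM of both transporters in Cre-positive MI against 1.46 ± 0.24% in Cre-positive sham hearts, and 25.1 ± 2.4% in Cre-negative MI against 1.94 ± 0.35% in Cre-negative sham hearts.

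The oxidative branch of the pentose phosphate pathway supplies NADPH and pentoses. G6pdx, its X-linked entry enzyme, had 35.4, 26.1 and 32.3 CPM in Cre-positive and 47.6, 38.5 and 36.8 in Cre-negative hearts after MI, and 11.1, 8.80 and 8.87 in Cre-positive and 10.4, 8.69 and 9.56 in Cre-negative hearts after sham. All MI libraries were above all sham libraries, and G6pdx rose by 1.70 ± 0.16 in Cre-positive hearts (adjusted p = 4.58e-06) and by 2.10 ± 0.16 in Cre-negative hearts (adjusted p = 6.797e-07). Pgd, coding for 6-phosphogluconate dehydrogenase, rose by 1.10 ± 0.12 in Cre-positive and 1.47 ± 0.13 in Cre-negative hearts. Both genes of glycogen turnover fell. Pygm, muscle glycogen phosphorylase, had 1099, 1189 and 1019 CPM in Cre-positive and 720.1, 860.2 and 894 in Cre-negative hearts after MI, and 2541, 1778 and 2132 in Cre-positive and 2280.3, 2099.6 and 2085 in Cre-negative hearts after sham. No MI library came near a sham library, and Pygm fell by 0.96 ± 0.14 in Cre-positive hearts (adjusted p = 0.000164) and by 1.39 ± 0.14 in Cre-negative hearts (adjusted p = 6.786e-06). Glycogen synthase of muscle (Gys1) fell by 0.45 ± 0.12 in Cre-positive and 0.47 ± 0.12 in Cre-negative hearts.

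Within a library, the ratio of a muscle-type to a widely expressed isoform does not depend on how libraries are scaled to each other. The log2 ratio of FPKM was lower in all 6 MI libraries than in all 6 sham libraries for 6 of 8 pairs, of which 2 share Pfkm. For lactate dehydrogenase the ratio is that of the heart-type subunit Ldhb to Ldha. Among single genes, 16.5% were lower in all 6 MI libraries by CPM, and no such share was computed for ratios. For Pgam2 over Pgam1 it was 2.50, 2.60 and 2.37 in Cre-positive and 1.53, 1.92 and 2.11 in Cre-negative hearts after MI, and 3.84, 3.52 and 4.03 in Cre-positive and 4.45, 4.20 and 4.27 in Cre-negative hearts after sham. The mean log2 ratio was thus lower after MI by 1.31 in Cre-positive and 2.45 in Cre-negative hearts (differences of -1.31 and -2.45). For Eno3 over Eno1 the ratio was 1.45, 1.65 and 1.45 in Cre-positive and 0.46, 0.87 and 1.06 in Cre-negative hearts after MI, and 3.05, 2.19 and 3.02 in Cre-positive and 3.29, 3.05 and 3.0 in Cre-negative hearts after sham. For Slc2a4 over Slc2a1 it was 3.53, 3.61 and 3.40 in Cre-positive and 2.62, 2.61 and 2.95 in Cre-negative hearts after MI, and 4.53, 4.29 and 4.38 in Cre-positive and 4.49, 4.46 and 4.55 in Cre-negative hearts after sham. Muscle-type transcripts remained the more abundant per length in every library for these 3 pairs. The differences between MI and sham in the other separated pairs were -0.82 in Cre-positive and -1.08 in Cre-negative hearts for Pfkm over Pfkl, -1.42 in Cre-positive and -2.09 in Cre-negative hearts for Pfkm over Pfkp, and -0.94 in Cre-positive and -1.39 in Cre-negative hearts for Ldhb over Ldha. Hk2 over Hk1 and Pfkfb2 over Pfkfb3 were not separated, because single libraries crossed over. Hk2 over Hk1 was -1.34 in Cre-positive sham replicate 2, below 5 of the 6 MI libraries, and Pfkfb2 over Pfkfb3 was 1.40 in Cre-negative sham replicate 2, below 2 of the Cre-positive MI libraries.

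**Figure D3:**
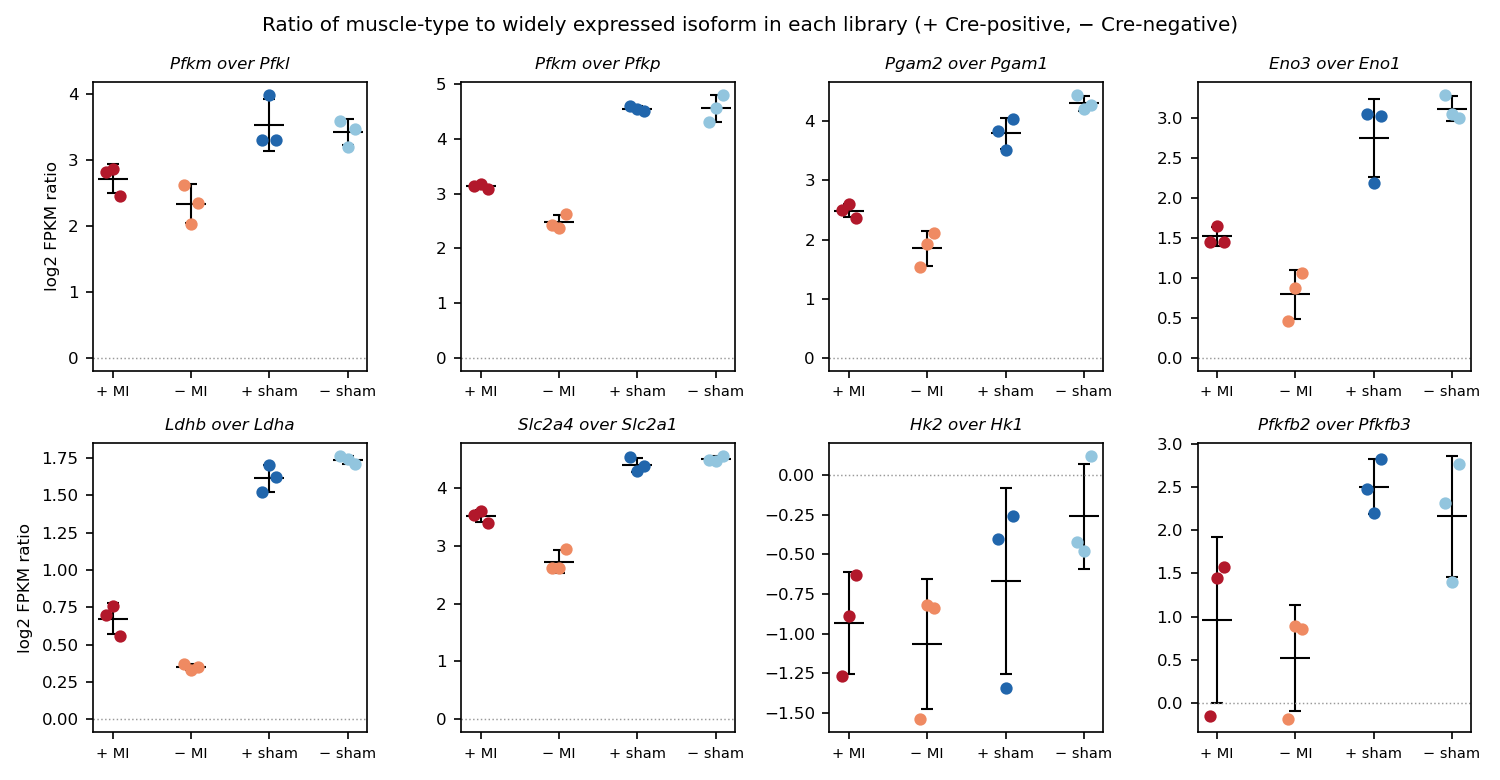
Log2 ratio of the FPKM of the muscle-type (for lactate dehydrogenase, heart-type) to the widely expressed isoform in each library, for 8 pairs, from left to right Cre-positive MI, Cre-negative MI, Cre-positive sham and Cre-negative sham, with the mean and SD of 3 libraries in black and a dotted line at equal FPKM. MI libraries lie below sham libraries in the first 6 panels, and Cre-positive MI lies above Cre-negative MI without overlap for Pfkm over Pfkp, Pgam2 over Pgam1, Eno3 over Eno1, Ldhb over Ldha and Slc2a4 over Slc2a1.

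The next comparison asked whether these genes differed between Cre-positive and Cre-negative hearts after infarction. The genotypes differ in the recombinase, the Postn allele that carries it and the directed deletion of Yap, which cannot be told apart here. Y-linked reads were present in 1 of 3 Cre-positive and 3 of 3 Cre-negative MI libraries. The edgeR test called 0 of the 35 genes for Cre-positive against Cre-negative MI hearts, and 0% of all genes tested, with 10 of the 35 and 1728 of all 13678 at an unadjusted p under 0.05. DESeq2 called 1 of the 35, Hk3 (log2 -0.82 ± 0.24, adjusted p = 0.0469, against 0.283 in edgeR), and 177 genes in all. The 3 smallest p-values in edgeR were those of Pgam1 (log2 -0.41 ± 0.11, adjusted p = 0.251), Hk3 (log2 -0.82 ± 0.27, adjusted p = 0.283) and Slc16a3 (log2 -0.50 ± 0.16, adjusted p = 0.284), each lower in the 3 Cre-positive than in the 3 Cre-negative MI libraries. In CPM, 16 of the 35 genes had no overlap between the 3 Cre-positive and the 3 Cre-negative MI libraries, against 27.2% of all genes tested. The Cre-positive libraries were the higher for 8 of them (12% of all genes), namely Gpi1, Pfkm, Aldoa, Eno3, Ldhb, Slc2a4, Slc16a1 and Pygm. They were the lower for the other 8 (15.2% of all genes), namely Hk3, Pfkp, Pgam1, Eno1, Slc2a1, Slc16a3, G6pdx and Pgd. The Cre-negative MI libraries enter both this comparison and the injury comparison in Cre-negative hearts, so the directions in the 2 are not independent. The authors' deposited table for this comparison, made with DESeq2, gives an adjusted p under 0.05 to 9 of the 35 genes and to 763 of 17182 genes. Of these in the authors' deposited table, 6 were higher in Cre-positive MI hearts (Pfkm, Eno3, Ldhb, Slc2a4, Slc16a1 and Pygm) and 3 lower (Hk3, Pgam1 and Eno1).

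The log2 isoform ratios after MI stood higher in Cre-positive than in Cre-negative hearts, without overlap, for 5 of 8 pairs. Among single genes, 12% were higher in Cre-positive MI libraries without overlap in CPM and 15.2% lower, 27.2% in either direction. No such share was computed for ratios. The pairs are not independent, since Pfkm enters 2 of them. The differences of their means were 0.66 for Pfkm over Pfkp, 0.64 for Pgam2 over Pgam1, 0.72 for Eno3 over Eno1, 0.33 for Ldhb over Ldha and 0.79 for Slc2a4 over Slc2a1. The libraries overlapped for Pfkm over Pfkl (0.38), Hk2 over Hk1 (0.14) and Pfkfb2 over Pfkfb3 (0.44). The ratios are given as a description, and no test was made of them. Beside them, the 9 cardiomyocyte markers had a median log2 difference of 0.44 between Cre-positive and Cre-negative MI hearts and the 9 macrophage markers one of -0.44, and the summed CPM of each list did not overlap between the genotypes. The 8 fibroblast markers, Postn among them, had a median of -0.28, and their sums, of 11859 to 13134 CPM in Cre-positive and 15973 to 17735 CPM in Cre-negative MI libraries, did not overlap either. The 7 neutrophil markers tested had a median of -0.81, with sums of 27.5 to 62.5 CPM in Cre-positive MI and 50.2 to 111 CPM in Cre-negative MI libraries. No marker of these 4 lists was called, and the part of these cells in the ratios was not tested. With the Y-linked reads of each library added to the fit, a choice made after the data were seen, 0 of the 35 genes were called and 7 had an unadjusted p under 0.05. Of all 13678 genes, that fit called 0 and gave 1328 an unadjusted p under 0.05.

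**Figure D4:**
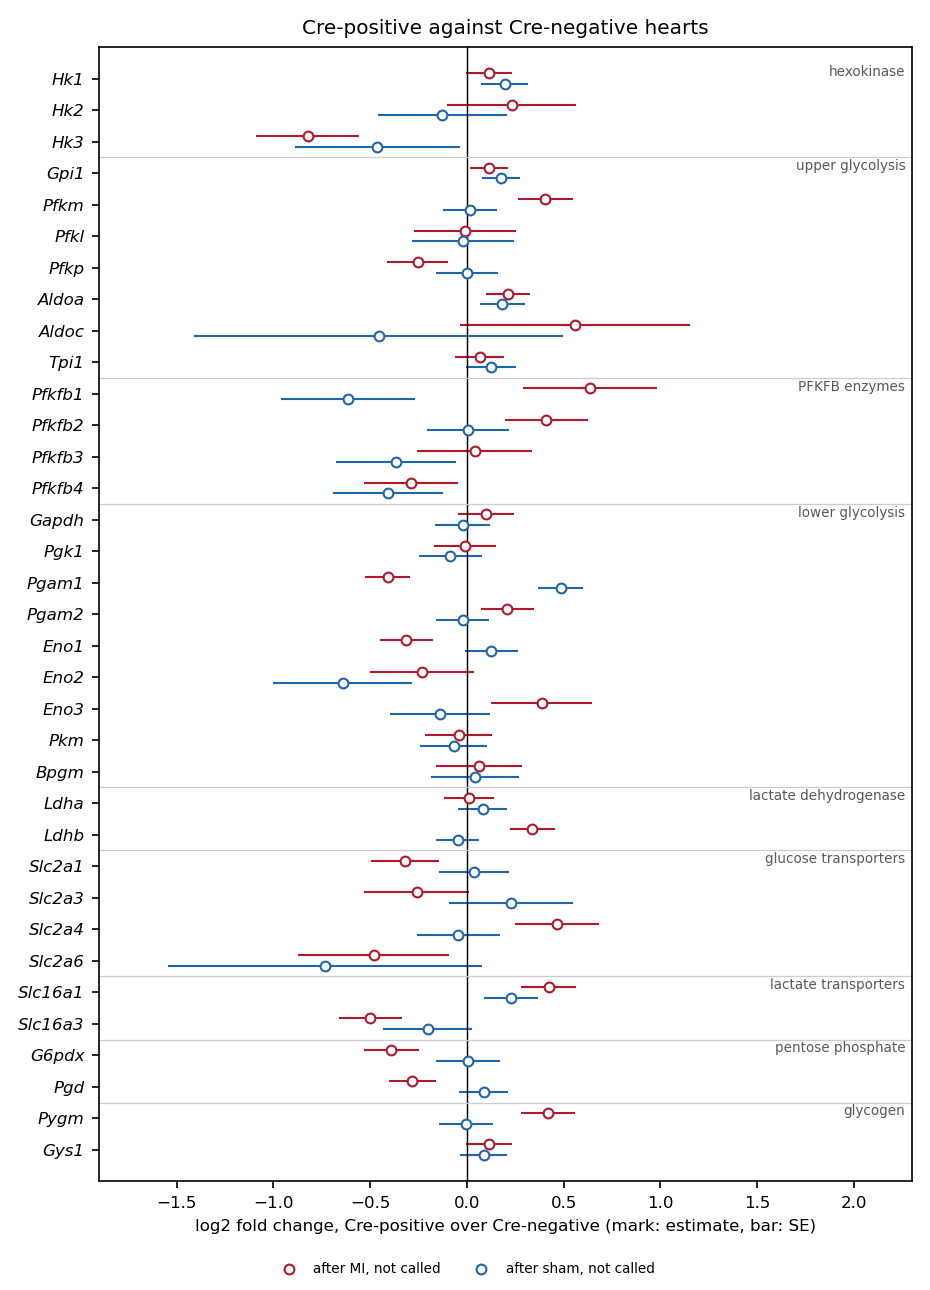
Log2 fold change of Cre-positive over Cre-negative hearts for each of the 35 genes, after MI (red) above after sham (blue), with bars of 1 standard error. No mark passed an adjusted p under 0.05, and Pgam1 lies at -0.41 after MI and at 0.48 after sham.

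After sham surgery edgeR called 0 of the 35 genes for Cre-positive against Cre-negative sham hearts, against 0.0512% of all genes, and 1 of the 35 and 1125 genes in all had an unadjusted p under 0.05. DESeq2 called 1 of the 35 and 39 genes in all, and the authors' deposited table gives an adjusted p under 0.05 to 0 of the 35. The gene called by DESeq2 was Pgam1, which was higher in the 3 Cre-positive than in the 3 Cre-negative sham libraries (log2 0.48 ± 0.12, adjusted p = 0.473 in edgeR, adjusted p = 0.0363 in DESeq2). Next came Gpi1 (log2 0.18 ± 0.10, adjusted p = 0.632), with 1271, 1182 and 1129 CPM in Cre-positive and 1136, 962 and 1070.1 CPM in Cre-negative sham libraries, and Eno2 (log2 -0.64 ± 0.36, adjusted p = 0.635). The libraries overlapped for Gpi1 and were apart for Eno2. In CPM, 4 of the 35 genes did not overlap (Aldoa and Pgam1 higher, Pfkfb3 and Eno2 lower in Cre-positive), against 10.6% of all genes (5.5% higher and 5.15% lower). Of the 8 log2 isoform ratios, Pgam2 over Pgam1 and Ldhb over Ldha were apart, both lower in Cre-positive sham hearts, by 0.51 and 0.12 (differences of -0.51 and -0.12). Beside these values, the 8 fibroblast markers had a median log2 difference of -0.95 after sham, and 1 of them, Postn, was called. Their sums of 904 to 1282 CPM in Cre-positive and 1740.3 to 2224 CPM in Cre-negative sham libraries did not overlap, and their part in the ratios was not tested.

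Whether infarction acted unequally in the genotypes was tested as an interaction. edgeR called 0 of the 35 genes and 0% of all genes, with 4 of the 35 and 1116 of all genes at an unadjusted p under 0.05, and DESeq2 called 1 of the 35 and 34 genes in all. The 3 smallest p-values in edgeR were those of Pgam1 (log2 difference -0.89 ± 0.16, adjusted p = 0.361), Pfkfb1 (1.25 ± 0.49, adjusted p = 0.597) and Ldhb (0.39 ± 0.16, adjusted p = 0.597). The calls that the injury comparisons make in 1 genotype alone, for Hk2, Pfkfb1, Gapdh, Eno3, Slc2a1 and Slc2a3 in Cre-negative and Aldoc in Cre-positive hearts, are therefore not shown to differ between genotypes.

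Genes next to the 35 in metabolism were taken from lists and are given as counts and medians. The oxidative entry of pyruvate into mitochondria had 8 of 13 genes lower and 1 higher in Cre-positive hearts (median log2 fold change -0.56), and 11 lower and 1 higher in Cre-negative hearts (median -0.90). Among them Pdk2, a kinase that inhibits pyruvate dehydrogenase, fell by 1.17 ± 0.10 in Cre-positive and 1.45 ± 0.10 in Cre-negative hearts. Mpc1, a subunit of the mitochondrial pyruvate carrier, fell by 0.56 ± 0.10 in Cre-positive and 0.87 ± 0.10 in Cre-negative hearts. Against the direction of the list, Pdk3, another such kinase, rose by 1.44 ± 0.19 in Cre-positive and 1.92 ± 0.20 in Cre-negative hearts. Of 7 further pentose phosphate genes 3 rose and 0 fell in each genotype (median 0.39 in Cre-positive and 0.35 in Cre-negative hearts). The transketolase gene Tkt rose by 1.58 ± 0.23 in Cre-positive and 1.70 ± 0.23 in Cre-negative hearts. Of 19 further genes of glycogen metabolism 9 fell and 2 rose in Cre-positive hearts (median -0.42), and 12 fell and 3 rose in Cre-negative hearts (median -0.51). Epm2a, coding for the glycogen phosphatase laforin, fell by 0.89 ± 0.17 in Cre-positive and 1.36 ± 0.17 in Cre-negative hearts, and Pygl, liver-type glycogen phosphorylase, rose by 1.76 ± 0.22 in Cre-positive and 1.60 ± 0.22 in Cre-negative hearts.

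Of 15 further sugar and monocarboxylate transport genes 6 rose and 5 fell in Cre-positive hearts (median 0.01), and 7 rose and 4 fell in Cre-negative hearts (median -0.18). The chaperones of the lactate transporters moved apart. Bsg (basigin), a partner of MCT1 and MCT4, fell by 0.67 ± 0.09 in Cre-positive and 0.79 ± 0.09 in Cre-negative hearts, whereas Emb (embigin) rose by 3.38 ± 0.27 in Cre-positive and 3.65 ± 0.25 in Cre-negative hearts. Of 6 gluconeogenic genes 2 rose and 1 fell in Cre-positive hearts (median -0.28), and 1 rose and 4 fell in Cre-negative hearts (median -0.60). Of 19 hypoxia factors and targets outside glycolysis 4 rose and 4 fell in Cre-positive hearts (median -0.25), and 5 rose and 6 fell in Cre-negative hearts (median -0.01). Among these Car9, carbonic anhydrase 9, rose by 2.81 ± 0.67 in Cre-positive and 3.43 ± 0.64 in Cre-negative hearts, whereas Epas1, coding for HIF-2 alpha, fell by 0.86 ± 0.11 in Cre-positive and 1.04 ± 0.11 in Cre-negative hearts. Of 17 other regulators of glycolysis 2 rose and 8 fell in Cre-positive hearts (median -0.50), and 2 rose and 9 fell in Cre-negative hearts (median -0.67). For all of these lists 25.7% of all genes rose and 19.5% fell in Cre-positive hearts, and 29.9% rose and 24.4% fell in Cre-negative hearts.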

How the data were processed

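RNA of whole left ventricle was sequenced in 12 libraries, 3 in each of 4 groups set by the labels. Per the submitters' processing notes the authors used Bowtie2 2.2.5 and RSEM 1.2.12 on mm10. The deposited expected counts and FPKM per gene come from RSEM, per the file headers, and 74.0% of expected counts are whole within 0.005. The authors' deposited tables also hold log2 fold changes with p-values and adjusted p-values, which were used only where named. Expected counts were rounded and fitted with edgeR 4.0.16 (quasi-likelihood test, R 4.3.3, limma 3.58.1), with TMM factors, a filter of minimum count 10 and 1 coefficient per group over all 12 libraries. P-values were adjusted by Benjamini-Hochberg over 13678 genes, and calls needed an adjusted p under 0.05. The alternatives were DESeq2 1.42.0, RLE factors, library totals, no filter, a minimum count of 30, the compared libraries alone, a replicate block, a pseudocount of 1 FPKM in ratios, each library left out and, chosen after seeing the data, Y-linked reads as a covariate. Isoform ratios and shares use FPKM and are descriptions. Totals of 10257675 to 15176286 limit genes near 3 counts. The code was tested on simulated data. Values are given for isoform pairs, for the 6 called genes with the largest fold change in each comparison (or the 3 smallest p-values where none was called) and for up to 3 genes with the smallest p and 2 against the majority in each list. Other genes were added in the text for their role. Members and lists were chosen with earlier results of these data known.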

Additional observations from a re-analysis of the deposited data

Results flagged for a closer look

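The injury response of Pgam1 differed between genotypes by a test of the difference itself in DESeq2, with a log2 difference of -0.908 ± 0.179 (adjusted p = 0.000609), Cre-positive minus Cre-negative. The edgeR quasi-likelihood test gave -0.89 ± 0.16 with an adjusted p of 0.361, which did not pass. Over the alternatives the log2 difference lay between -0.98 and -0.82 and the adjusted p between 0.000609 and 0.761.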

How the results depend on the processing

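No direction of a called gene turned round under any alternative tried. DESeq2 called 1 gene of the 35 for Cre-positive against Cre-negative MI, 1 for Cre-positive against Cre-negative sham and 1 for the interaction, against 0 in edgeR for each; the cause was not tested. For MI against sham it called 26 in Cre-positive and 27 in Cre-negative hearts, against 6414 and 7544 of all 13678 genes. Of the calls made by edgeR, 16 of 22 in Cre-positive and 20 of 27 in Cre-negative hearts were made under every alternative. With 1 library left out, the counts lay between 21 and 27 in Cre-positive hearts, between 23 and 27 in Cre-negative hearts, and at 0 for the other 3 comparisons. Of the 13785 to 13856 genes tested, these fits called 5060 to 6603 in Cre-positive and 6345 to 8360 in Cre-negative hearts. In the other 3 comparisons they called at most 8 of all genes. Without Cre-positive sham replicate 2, 27 of the 35 genes were called in Cre-positive hearts, against 6603 of all 13837 genes tested there. With the replicate number as a block, 23 of the 35 genes were called in Cre-positive hearts, 26 in Cre-negative hearts and 0 in the other comparisons. Of all 13678 genes, the fit with this block called 6150 in Cre-positive and 7370 in Cre-negative hearts. There Slc2a1 in Cre-negative hearts had an adjusted p of 0.0509 and was not called. Over 18 same-number pairs the correlation of deviations from group means ran from -0.154 to 0.288, with 4 over 0.1. Different-number pairs ran from -0.309 to 0.22. The highest values, 0.288 and 0.254, joined Cre-positive and Cre-negative MI libraries, replicates 1 and replicates 3. Since each group has 3 libraries, these values cannot decide whether the numbers pair the samples. Depth limits Aldoc and Slc2a6, whose sham libraries held few reads. It also bears on Hk3 and Eno2. In Cre-positive sham libraries Hk3 had expected counts of 21, 3 and 18, and Eno2 had 19, 16 and 4.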
